A study of Mus musculus with 21 samples.

Results

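Mouse embryonic stem cells treated with CX-5461 held a set of 62 genes whose mRNA was low at 4 h and near its starting level again at 8 h. The set was taken from a deposited table of log2 expression values for 20900 gene symbols in 21 libraries. Genes with a mean of at least 2 over all libraries were kept, which left 11175. Each library was centred on the median of its expressed genes, so that a centred value of 0 is that library's median gene. The 62 members had a group mean at least 1 log2 unit below the control at 4 h of CX-5461, and no more than 0.4 below it at 8 h. Another 219 genes passed the same 4 h threshold but were still more than 0.4 below the control at 8 h, and they serve here as the genes that stayed low. The members were thus chosen on CX-5461 at 4 and 8 h against the control, and those values are given as a description. BMH-21, the other drug of the study, was not used in the choice apart from the filter on the mean.

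Both drugs inhibit RNA polymerase I, which transcribes ribosomal RNA genes in the nucleolus, and both bind DNA. CX-5461 also acts on topoisomerase II and binds G-rich four-stranded DNA structures, and BMH-21 intercalates into GC-rich DNA and triggers degradation of the catalytic subunit of RNA polymerase I. The members are transcribed by RNA polymerase II. Many mRNAs of transcription factors, growth factors and signalling regulators are known to be turned over quickly, so their levels can follow transcription within hours. Embryonic stem cells grown with serum and LIF keep their identity through a network of such factors, among them Prdm14, which restrains FGF signalling in the naive state.

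The cells were E14 embryonic stem cells of a 129 strain, in serum and LIF. The groups were untreated cells at 0 h, cells with 1 µM CX-5461 for 2, 4 or 8 h, and cells with 1 µM BMH-21 for 2, 4 or 8 h, with 3 replicates in each of the 7 groups. One untreated group, taken at 0 h, served both drugs, so time in fresh medium cannot be told apart from time with a drug. The labels do not say whether replicates were separate cultures, and p-values then measure the spread between these libraries, which may be technical.

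The libraries held 46604397 to 62812641 reads, recovered from the log2 values. The lowest count of any member in any library was 69 reads, and the median was 837. Replicate 2 of BMH-21 at 8 h differed most from its group (chi-square over degrees of freedom 26.01 and 24.63 against its fellows, and 2.58 to 16.73 in the other pairs), and counts that rest on it are given without it too. All 8 embryonic stem cell markers checked were above a log2 value of 0 in the control. None of the 8 is a member, and their summed level, as log2 on the deposited scale, ran from 12.55 to 12.74 in the control. At 4 h it was 11.77 to 12.02 with CX-5461 and 11.74 to 11.97 with BMH-21. At 8 h it was 12.41 to 12.51 with CX-5461 and 11.49 to 11.57 with BMH-21. The sum was thus below the control with both drugs at both times, least so at 8 h of CX-5461. Against the control, the deposited scale puts CX-5461 libraries at 8 h higher than the centred scale (0.22) and BMH-21 libraries lower (-0.21). This shift enters all marker sums given here. Of the 8 markers, Nanog, Esrrb and Zfp42 were among the genes that stayed low with CX-5461. A trophoblast list, with 5 of 6 genes above 0 in the control, was at 4.56 to 4.81 there, 5.92 to 6.05 at 8 h of CX-5461 and 6.15 to 6.29 at 8 h of BMH-21. Neural markers, 5 of 5 above 0, were at 7.81 to 7.94 in the control, above it at 8 h of CX-5461 (8.19 to 8.27) and below it at 8 h of BMH-21 (7.08 to 7.27). The feeder fibroblast list, 3 of 7 above 0, was at 4.93 to 5.12 in the control, 5.43 to 5.47 at 8 h of CX-5461, and 5.44 to 5.74 and 5.28 to 5.54 at 4 and 8 h of BMH-21. Primitive endoderm had 5 of 7 genes above 0 and mesoderm 2 of 4, with summed levels of 4.13 to 4.40 and 2.37 to 2.68 in the control, 4.48 to 4.54 and 2.70 to 2.78 at 8 h of CX-5461, and 4.21 to 4.5 and 2.51 to 2.84 at 8 h of BMH-21. The part of these markers in the results was not tested, and in bulk RNA fewer cells of a type and less RNA per cell cannot be told apart.

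At 2, 4 and 8 h of CX-5461 the median member differed from the control by -0.31, -1.13 and -0.24. Over the 14666 genes with enough expression to be tested, these medians were -0.03, -0.12 and -0.11. Prdm14 stood lowest at 4 h. At 8 h 50 of the 62 were still below the control and 12 above, with the transporter gene Slco5a1 the highest at 0.61. Of all 14666 tested genes, 8605 were below the control at that time and 6061 above. The genes that stayed low had medians of -0.33, -1.19 and -0.70, so the 2 sets had similar depths at 2 and 4 h and parted at 8 h, where the rule divides them.

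**Figure D1:**
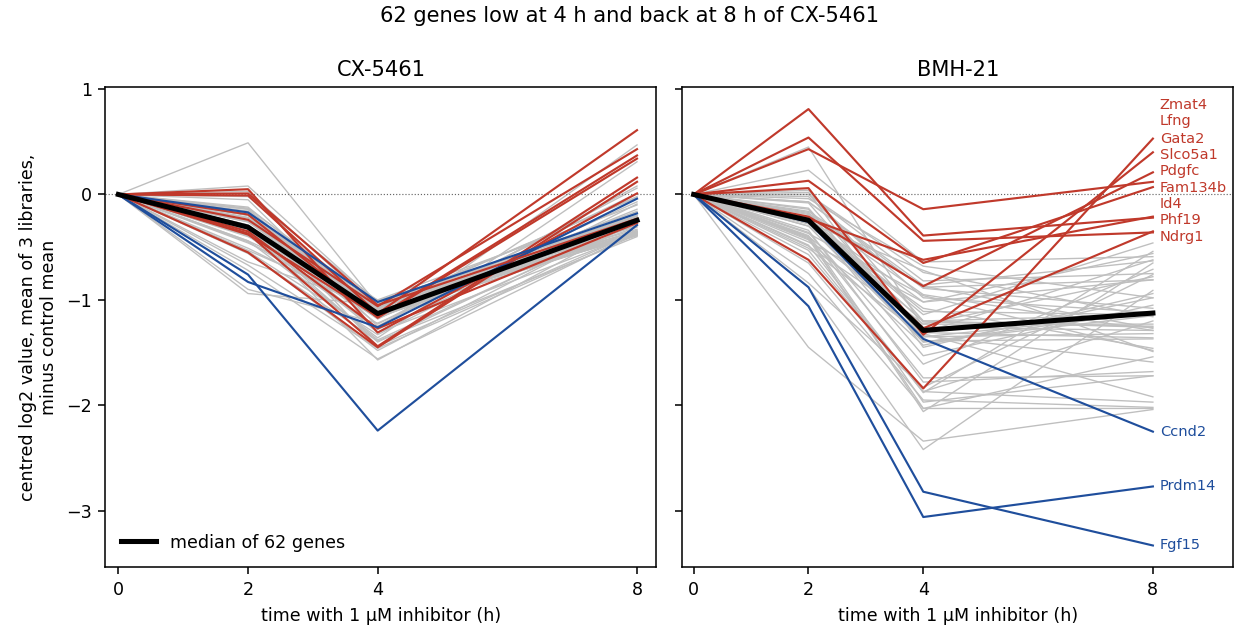
Mean of 3 libraries minus the control mean on the centred log2 scale (vertical axis) against time with 1 µM drug in hours (horizontal axis), for the 62 members (thin lines) and their median (thick line). Red lines are the 9 members within 0.4 of the control or above it at 8 h of BMH-21, and blue lines are the 3 lowest there; the median ends at -0.24 with CX-5461 and at -1.12 with BMH-21.

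The thresholds cut through a continuous range. Tmem79, Lrig1 and Grhl2 lay just inside the 4 h threshold at -1.004, -1.007 and -1.007, and Sephs2, Ccdc102a and B4galnt4 lay just outside at -0.997, -0.993 and -0.991. At 8 h Zfp710, Ppp1r18 and Bcl3 were just inside at -0.395, -0.394 and -0.393, and Mirg, Mex3a and St6galnac2 just outside at -0.401, -0.403 and -0.409. The membership also depended on the scaling. On the values as deposited, 263 genes met the rule, the 62 among them. Against the control, the deposited scale places the 4 h CX-5461 libraries lower than the centred one (-0.16) and those at 8 h higher (0.22), which loosens both thresholds. With median-ratio factors 59 genes met it and 39 were shared, and centring on all rows of the table gave 60 with 18 shared. Leaving out 1 library at a time gave 61 to 69 genes, and 38 members were kept each time.

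At 2 h most members were already lower with either drug. Against the control, 42 of 62 were lower and 1 higher with CX-5461, where 17.8% of all tested genes were lower and 15.8% higher. With BMH-21, 38 were lower and 5 higher, against 17.5% and 18.6% of all tested genes. These calls are from limma on the centred values of all 21 libraries with Benjamini-Hochberg adjusted p under 0.05, 2-sided, as are all calls below. The control libraries also entered the rule, so these counts are not independent of the choice. The member called higher with CX-5461 was Zfp296, a zinc finger gene active in embryonic stem cells. Its centred log2 values were 1.72, 1.75 and 1.77 in the control, 2.31, 2.24 and 2.16 at 2 h of CX-5461, and 2.26, 2.15 and 2.18 at 2 h of BMH-21. Every 2 h library was above every control library, while the 4 h means against the control were -1.05 with CX-5461 and -1.26 with BMH-21.

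The drugs were compared directly at 2 h, where neither group entered the thresholds. The median difference of BMH-21 from CX-5461 was 0.02 over the members and 0.02 over all tested genes. Among the members 12 were higher with BMH-21 and 1 lower, where 7.83% and 7.58% of all tested genes were called. Of the genes that stayed low, 44 of 219 were higher and 12 lower. On the values as deposited only 4 members were called higher and 0 lower, out of the same 62.

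Id4, one of the Id proteins that block helix-loop-helix transcription factors and a target of BMP signalling, had the largest difference between the drugs at 2 h. Its centred values were -1.82, -1.78 and -1.87 in the control, -2.16, -2.06 and -1.82 with CX-5461 and -1.15, -1.01 and -0.90 with BMH-21. The BMH-21 libraries were above all others, and the difference between drugs was 0.99 (SE 0.09, limma adjusted p = 1.1e-07). Ndrg1, a gene induced by hypoxia, was 0.48 higher with BMH-21 (SE 0.07, limma adjusted p = 7.1e-05), and Slco5a1 was 0.44 higher (SE 0.10, limma adjusted p = 0.0045). Fjx1, the mouse relative of the fly kinase four-jointed, was the member called lower, by -0.51 (SE 0.11, limma adjusted p = 0.0034). Its values were -1.75, -1.73 and -1.85 with CX-5461 and -2.10, -2.25 and -2.49 with BMH-21, so the groups did not overlap.

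Between 2 and 4 h of BMH-21 all 62 members fell, each with its 3 libraries at 4 h below its 3 at 2 h, as in 40.4% of all tested genes. None of these 6 libraries per gene entered the thresholds. The median change was -1.03, against -0.06 over all tested genes, of which 39.3% were lower and 29.0% higher. The genes that stayed low behaved alike at this step, with 218 of 219 lower. Prdm14 changed most, by -2.00 (SE 0.10, limma adjusted p = 3.4e-14), followed by Fgf15 at -1.94 (SE 0.12, limma adjusted p = 9.2e-13) and Zfp296 at -1.71 (SE 0.05, limma adjusted p = 1.4e-18). The smallest change was that of Fam134b, a receptor for autophagy of the endoplasmic reticulum, at -0.39; it was singled out after its value was seen.

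Against the control, 61 of 62 members were lower at 4 h of BMH-21, where 41.5% of all tested genes were lower and 32.2% higher. The member not called was Slco5a1, at -0.14 (SE 0.10). A difference of at least 1 log2 unit below the control was reached by 44 of the 62, and by 4.30% of the genes with a mean of at least 2. These differences share the control libraries with the rule. The members' median was -1.29, and that of the genes that stayed low was -1.26. Set beside CX-5461 at 4 h, the median difference of BMH-21 was -0.18, with a range from -1.56 for Fgf15 to 0.99 for Slco5a1. Over all tested genes the median was 0.05. CX-5461 at 4 h was used to choose the members, so these values are a description.

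At 8 h the courses under the 2 drugs were apart. The members' median difference from the control was -1.12 with BMH-21 and -0.24 with CX-5461, and 59 of the 62 were lower with BMH-21 than with CX-5461. The genes that stayed low parted alike, with 211 of 219 lower with BMH-21 than with CX-5461. The median difference of BMH-21 from CX-5461 at 8 h was -0.88 over the members and -0.89 over the genes that stayed low. Over all tested genes it was -0.06, and 8115 of 14666 were lower with BMH-21. Since CX-5461 at 8 h was used to choose both sets, these differences between the drugs are descriptions. Against the control, 56 members were lower and 3 higher at 8 h of BMH-21, with 51.3% and 33.3% of all tested genes called in those directions. Without replicate 2 of the 8 h group, 55 were lower and 2 higher. At least 1 log2 unit below the control were 36 of the 62 (11.1% of the genes with a mean of at least 2), and 29 were that low at both 4 and 8 h. The share of those genes that low at both times was not counted. At 4 h of BMH-21 alone it was 4.30%. Within 0.4 of the control or above it were 9 of 62, where 59.0% of the genes with a mean of at least 2 were.

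Those 9 were Slco5a1, Id4, Fam134b, Ndrg1, Phf19, Pdgfc, Lfng, Gata2 and Zmat4. Only Zmat4, Lfng and Phf19 of them had also been at least 1 below the control at 4 h. So 3 of 62 members met with BMH-21 both thresholds set on CX-5461, against 0.188% of the genes with a mean of at least 2. That share is low because few of those genes fell at 4 h. Of the 481 that were at least 1 below the control at 4 h of BMH-21, 21 met the 8 h threshold. Among the 44 members that fell so far at 4 h, 3 met it. None of the 219 genes that stayed low with CX-5461 met both, and 1 of them reached the 8 h threshold. Phf19, Pdgfc, Gata2 and Fam134b are named here because of this count, after their values were seen.

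**Figure D2:**
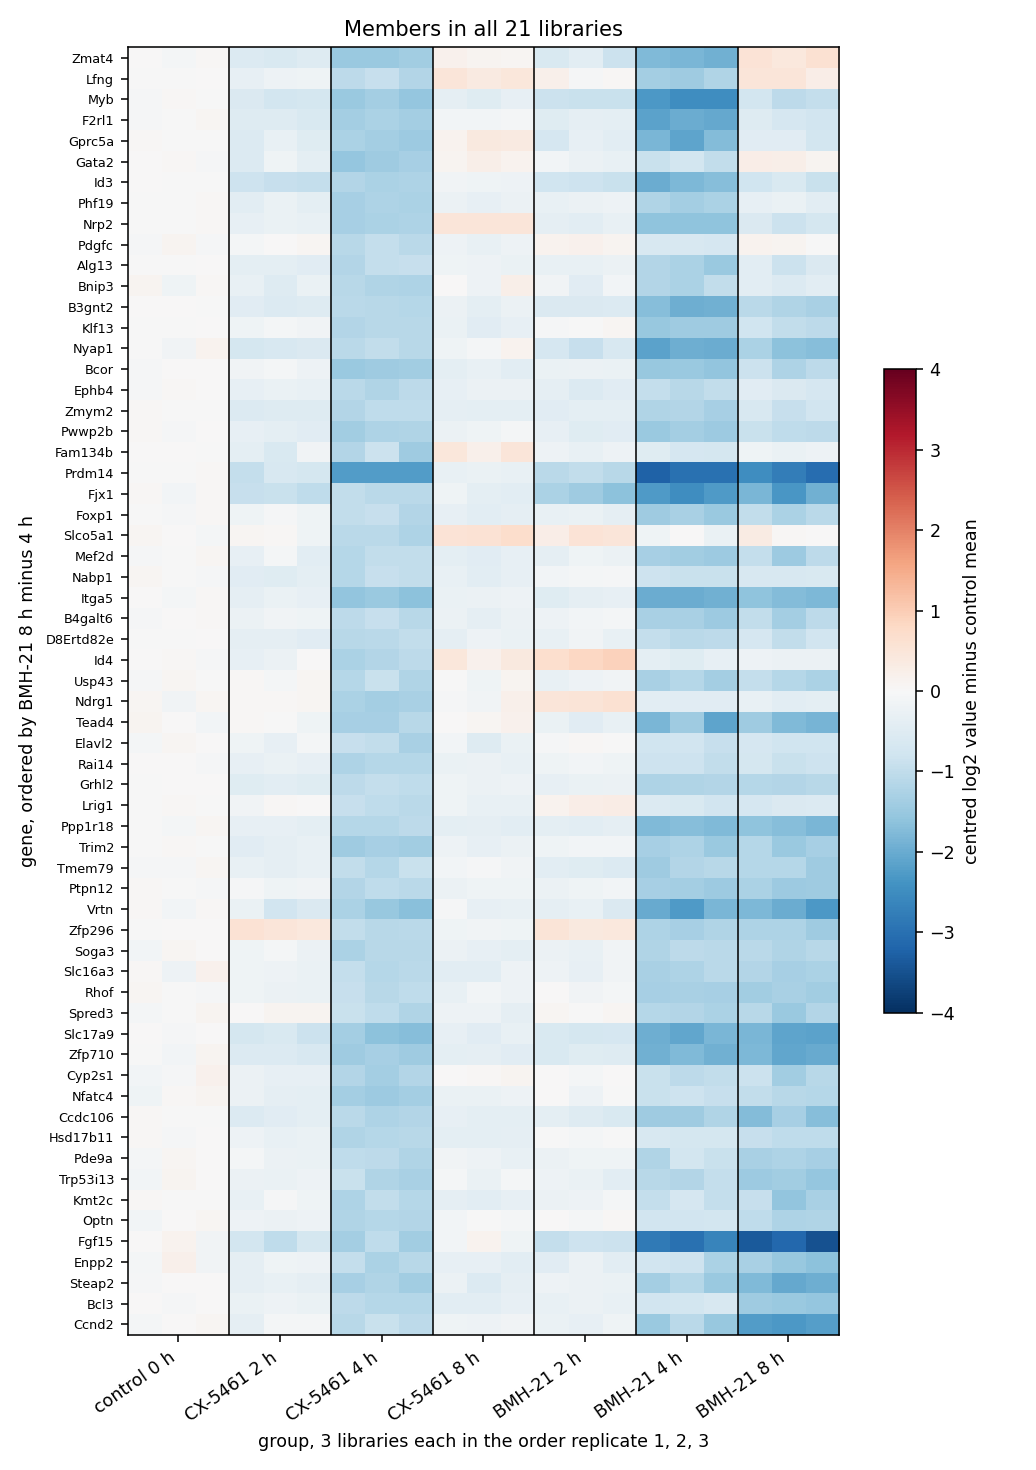
Centred log2 value minus the control mean (colour) for the 62 members (rows, ordered by the change from 4 to 8 h of BMH-21) in all 21 libraries (columns, 3 per group). The 4 h columns of CX-5461 are blue in every row and the 8 h columns of CX-5461 pale, while at 8 h of BMH-21 most rows remain blue and the top rows, led by Zmat4 and Lfng, turn pale or red.

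The change from 4 to 8 h of BMH-21 is independent of the control and of the CX-5461 libraries that chose the members. In this comparison 29 members rose, 12 fell and 21 were not called, where 28.3% of all tested genes rose and 42.2% fell. As shares, 46.8% of the members rose and 19.4% fell, against 16.9% and 59.4% of the genes that stayed low (37 and 130 of 219). The median change was 0.12 over the members, -0.29 over the genes that stayed low and -0.08 over all tested genes. Without replicate 2 of the 8 h group, 30 rose and 11 fell. In 26 members every 8 h library was above every 4 h library (27.9% of tested genes), and in 10 every one was below (40.2%). The members thus leaned to a rise in BMH-21 while the background leaned to a fall, but the typical rise was small beside the median of 0.92 that separated 4 and 8 h of CX-5461. The count of members that rose was 20 on the deposited values and 36 with median-ratio factors, with 11 and 10 that fell. The shares of all tested genes given above are for the centred scale. The lean of the members was not compared with the background on the other scales.

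**Figure D3:**
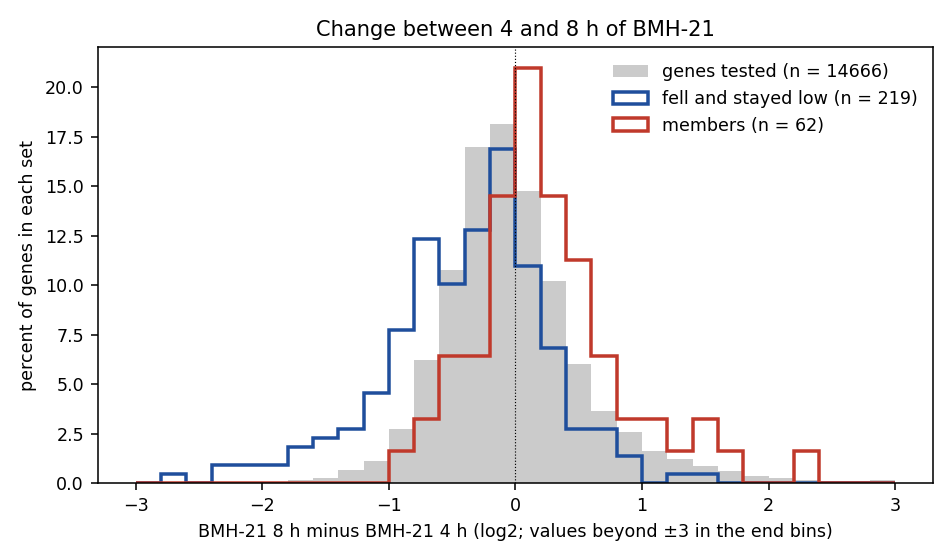
Percent of genes in each set (vertical axis) by the change from 4 to 8 h of BMH-21 on the centred log2 scale (horizontal axis), for the 62 members (red), the 219 genes that stayed low (blue) and the 14666 tested genes (grey). The members' median is 0.12, and that of the genes that stayed low is -0.29.

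Among the 15 transcription factors and cofactors, 7 rose from 4 to 8 h of BMH-21, 2 fell and 6 were not called, and 10 were still at least 1 below the control at 8 h. Counts by role are small, and the roles were set once the members were known. Each count is to be read beside the 28.3% of all tested genes that rose and the 42.2% that fell in this comparison. For values at least 1 below the control at 8 h, the share was 11.1% of genes with a mean of at least 2. Prdm14 lies at chr1:13113457-13127163 (GRCm38, the build also called mm10) on the minus strand. Its centred values were 0.22, 0.24 and 0.29 in the control. With CX-5461 they were -1.99, -1.99 and -2.00 at 4 h and -0.05, -0.01 and -0.06 at 8 h. With BMH-21 they were -2.98, -2.72 and -2.74 at 4 h and -2.23, -2.51 and -2.81 at 8 h. The CX-5461 libraries at 8 h lay just under the control, and all 6 BMH-21 libraries from 4 and 8 h lay below every library of any other group. Relative to the control Prdm14 was lower by 8.34-fold at 4 h of BMH-21 and by 6.82-fold at 8 h (limma adjusted p = 4.3e-18 and 1.6e-17). Its small rise between them, 0.30 (SE 0.10, limma adjusted p = 0.013), was not called when replicate 1 of the 4 h or of the 8 h group was left out (0.21 and 0.15). The 4 and 8 h libraries of BMH-21 overlapped.

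Id3, which like Id4 blocks helix-loop-helix factors and is induced by BMP signalling, came part of the way back. Its values were 2.49, 2.47 and 2.46 in the control, 0.48, 0.67 and 0.77 at 4 h of BMH-21, and 1.69, 1.86 and 1.58 at 8 h. The 8 h libraries stood above the 4 h libraries and below the control, with a rise of 1.07 (SE 0.06, limma adjusted p = 5.5e-13). With CX-5461 Id3 was 2.32, 2.31 and 2.27 at 8 h, close under the control. Id4 differed in its course, since after its early rise with BMH-21 it was -0.39 against the control at 4 h and -0.22 at 8 h. The change of Id4 between 4 and 8 h, 0.17 (SE 0.09), did not pass the test.

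Myb, a factor known from blood progenitors, rose from -3.43, -3.60 and -3.62 at 4 h of BMH-21 to -1.87, -2.16 and -2.08 at 8 h, a change of 1.51 (SE 0.08, limma adjusted p = 2.6e-13). Its control libraries were at -1.16, -1.07 and -1.15, so the 8 h values were still lower without overlap. Gata2, a factor of blood and trophoblast, returned fully. Its values were -1.82, -1.80 and -1.88 in the control, -2.71, -2.57 and -2.82 at 4 h of BMH-21 and -1.56, -1.59 and -1.72 at 8 h. The rise was 1.08 (SE 0.10, limma adjusted p = 7.2e-10), and every 8 h library was above the control on the centred scale. That excess, 0.21 (SE 0.10, limma adjusted p = 0.046), was about as large as the shift of the deposited from the centred scale at 8 h of BMH-21 (-0.21). Gata2 was named after its values were seen. The trophoblast list given above, which does not hold Gata2, was highest at 8 h of BMH-21. A link between Gata2 and that list was not tested.

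Vrtn, a gene tied to the number of vertebrae, Tead4, the DNA-binding partner of YAP in Hippo signalling, and Zfp296 stayed low with BMH-21. Vrtn was -2.03 at 4 h and -2.03 at 8 h against the control, and its change of 0.00 (SE 0.14) did not pass the test. Tead4 was -1.78 and -1.68, and Zfp296 -1.26 and -1.29. With CX-5461 at 8 h the same 3 genes stood at -0.22, 0.08 and -0.16. Zfp710 and Grhl2, an epithelial factor, were likewise not called between 4 and 8 h of BMH-21, at -0.10 (SE 0.06) and 0.06 (SE 0.04).

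Bcl3, a coactivator of NF-kB, went the other way. Its values were 1.21, 1.15 and 1.19 in the control, 0.15, 0.05 and 0.04 at 4 h of CX-5461 and 0.76, 0.75 and 0.86 at 8 h of CX-5461. With BMH-21 they were 0.42, 0.46 and 0.53 at 4 h and -0.24, -0.30 and -0.36 at 8 h. It was lower with CX-5461 than with BMH-21 at 4 h and the reverse held at 8 h, with no overlap at either time. The fall from 4 to 8 h of BMH-21 was -0.77 (SE 0.05, limma adjusted p = 6.9e-13).

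**Figure D4:**
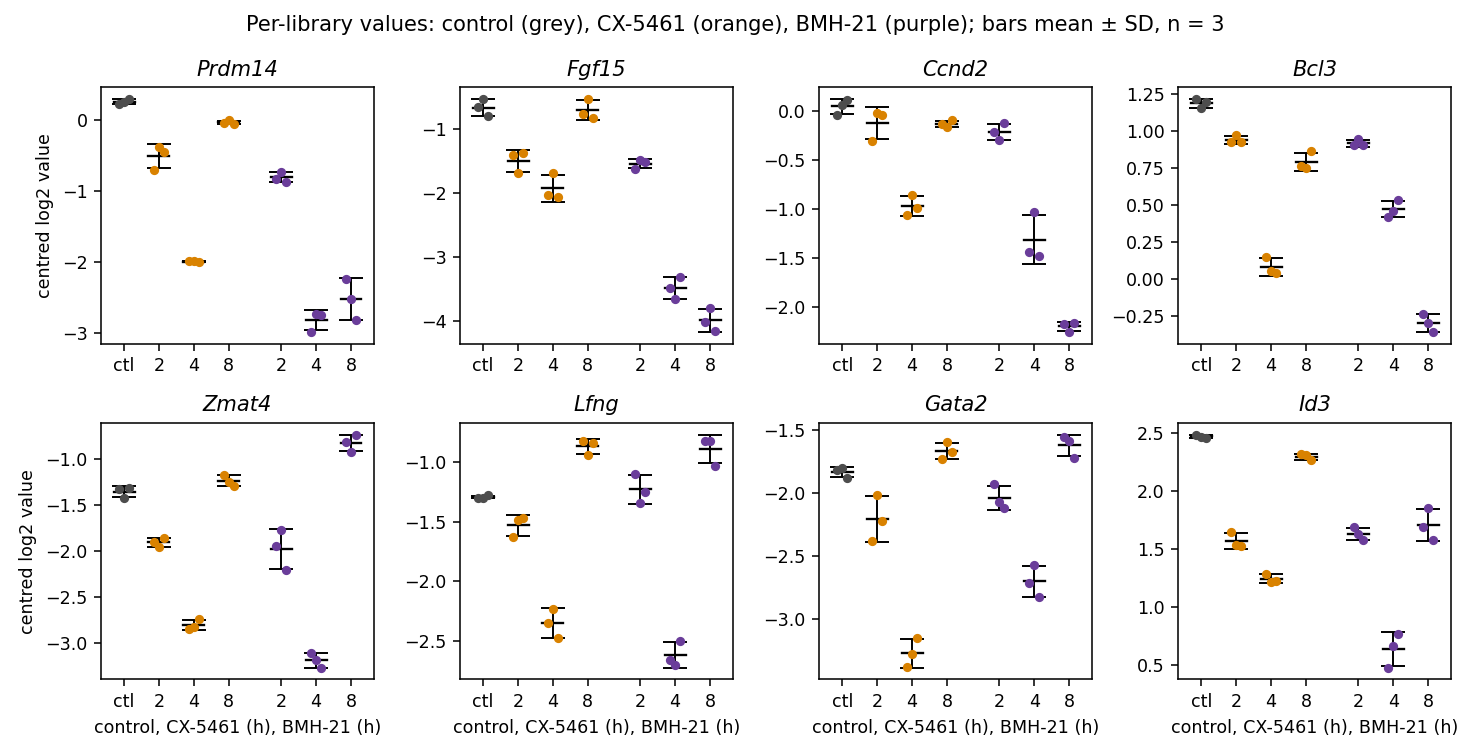
Centred log2 values of 8 members in each library (points) with the group mean and SD of 3 libraries (bars): control in grey, CX-5461 at 2, 4 and 8 h in orange, BMH-21 at 2, 4 and 8 h in purple. Prdm14, Fgf15, Ccnd2 and Bcl3 (upper row) are low at 8 h of BMH-21, and Zmat4, Lfng, Gata2 and Id3 (lower row) are higher at 8 h than at 4 h of BMH-21.

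Of the 5 chromatin regulators in the set, 4 rose from 4 to 8 h of BMH-21 and 1 fell (28.3% and 42.2% of all tested genes). A list of 27 chromatin genes, which includes Bcor and Kmt2c, went the other way, with 1 that rose and 20 that fell. Bcor, a subunit of a variant Polycomb complex, had values of 2.11, 2.19 and 2.19 in the control, 0.66, 0.67 and 0.57 at 4 h and 1.29, 0.94 and 1.12 at 8 h. Its rise was 0.48 (SE 0.06, limma adjusted p = 1.9e-07), and its 8 h mean was still at -1.05 against the control. Phf19, an accessory subunit of the other main Polycomb complex, rose by 0.92 (SE 0.06, limma adjusted p = 1.1e-12). The member that fell was Kmt2c, a histone methyltransferase acting at enhancers, by -0.41 (SE 0.11, limma adjusted p = 0.0020). Its libraries overlapped, at 0.55, 0.82 and 0.53 for 4 h and 0.58, -0.09 and 0.19 for 8 h. Without replicate 2 of the 8 h group, the change was -0.25 (limma adjusted p = 0.020).

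The 7 ligands and modifiers of signalling held the lowest member at 8 h of BMH-21, Fgf15, and also some that came back. Of the 7, 3 rose from 4 to 8 h, 2 fell and 2 were not called. Fgf15, a secreted FGF at chr7:144896531-144900953, was -0.66, -0.53 and -0.80 in the control and -0.76, -0.53 and -0.82 at 8 h of CX-5461. With BMH-21 it was -3.48, -3.66 and -3.31 at 4 h and -4.01, -3.80 and -4.16 at 8 h. The 8 h libraries of CX-5461 overlapped the control, while those of BMH-21 were below every other library. Fgf15 was lower than the control by 10.1-fold at 8 h of BMH-21 (limma adjusted p = 7.8e-18), where it had 69 to 105 reads a library, and it fell between 4 and 8 h by 0.51 (SE 0.12, limma adjusted p = 6.2e-04).

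Lfng, a glycosyltransferase that modifies Notch receptors, had the opposite course. Its values were -1.30, -1.30 and -1.28 in the control, -2.66, -2.70 and -2.50 at 4 h of BMH-21 and -0.82, -0.82 and -1.03 at 8 h. All 8 h libraries exceeded the control. The rise from 4 h was 1.73 (SE 0.08, limma adjusted p = 1.6e-14), and the excess over the control was 0.40 (SE 0.08, limma adjusted p = 9.3e-05). On the deposited values that excess was 0.19 and was not called. With CX-5461 at 8 h the libraries were at -0.82, -0.94 and -0.84, in the same range as with BMH-21.

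Pdgfc, a ligand of PDGF receptors, rose by 0.72 (SE 0.05, limma adjusted p = 4.3e-11), and Enpp2, whose enzyme makes the signalling lipid lysophosphatidic acid, fell by 0.53 (SE 0.12, limma adjusted p = 5.2e-04). Fjx1 rose by 0.30 (SE 0.11, limma adjusted p = 0.022), a call lost without replicate 2 at 4 h (0.23), replicate 1 at 8 h (0.20) or replicate 3 at 8 h (0.25), and it was still -2.04 against the control. Spred3, an inhibitor of Ras and ERK signalling, and Lrig1, a negative regulator of EGF receptors, were not called, at -0.06 (SE 0.09) and 0.04 (SE 0.07).

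All 5 receptors and adhesion genes rose from 4 to 8 h of BMH-21, as did 28.3% of all tested genes. At 8 h the 5 were still below the control, from -1.72 to -0.54, where 51.3% of all tested genes were called lower. F2rl1, a receptor activated by proteases, changed most. Its values were 1.28, 1.33 and 1.40 in the control, -0.79, -0.66 and -0.71 at 4 h and 0.82, 0.67 and 0.57 at 8 h, a rise of 1.41 (SE 0.06, limma adjusted p = 9.2e-16). Itga5, a subunit of the fibronectin receptor, changed least, by 0.24 (SE 0.05, limma adjusted p = 3.5e-04), which was 0.18 and not called on the deposited values. Between them were Gprc5a, an orphan receptor, at 1.34, Nrp2, a semaphorin co-receptor, at 0.90 and Ephb4, a receptor of ephrins, at 0.46. The receptor genes other than Itga5 were named after their values were seen.

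The 4 transporters had 1 member that rose, 1 that fell and 2 not called. Steap2, a metal reductase, fell by 0.60 (SE 0.09, limma adjusted p = 1.6e-06) to -1.92 against the control. Slc17a9, which loads ATP into vesicles, was -1.95 at 4 h and -2.02 at 8 h. Slco5a1 was the exception at 4 h, with values of -2.22, -2.28 and -2.35 in the control, -3.36, -3.37 and -3.51 at 4 h of CX-5461 and -2.44, -2.27 and -2.55 at 4 h of BMH-21. The BMH-21 libraries overlapped the control and those of CX-5461 were well below both. Its later rise of 0.26 (SE 0.10, limma adjusted p = 0.031) was lost without replicate 1 or 3 at 4 h (0.25 and 0.19) or replicate 1 at 8 h (0.16). Slco5a1 and Prdm14 are neighbours on chromosome 1, with 120807 bases between the annotated genes, and at 4 h of BMH-21 they marked the highest and the lowest member against the control, at -0.14 and -3.06.

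Of the 6 genes of metabolism and glycosylation, 3 rose, 2 fell and 1 was not called. B3gnt2, which extends sugar chains, and Alg13, of the first steps of N-glycosylation, rose by 0.67 and 0.69, and B4galt6, of glycolipid synthesis, by 0.22. Hsd17b11 fell by 0.30 and the cyclic GMP phosphodiesterase Pde9a by 0.34. Of the 4 genes associated with autophagy or hypoxia, Bnip3, a receptor for mitophagy, rose by 0.68 and Fam134b by 0.41, and the autophagy receptor Optn fell by 0.41. Ndrg1 was at -0.44 and -0.36 against the control at 4 and 8 h, and its change of 0.09 (SE 0.07) did not pass the test.

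Ccnd2, a D-type cyclin, had the largest fall between 4 and 8 h of BMH-21. Its values were -0.04, 0.06 and 0.11 in the control and -0.14, -0.17 and -0.10 at 8 h of CX-5461. With BMH-21 they were -1.44, -1.03 and -1.48 at 4 h and -2.18, -2.26 and -2.17 at 8 h. The 8 h libraries were below all others, and it fell by 0.88 (SE 0.09, limma adjusted p = 1.6e-08). Nabp1, a single-stranded DNA binding protein, rose by 0.24.

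The remaining 14 genes include actin and microtubule regulators, ubiquitin enzymes and genes of little-known function. Of them 3 rose, 2 fell and 9 were not called, and 10 were at least 1 below the control at 8 h of BMH-21. The exception was Zmat4, a zinc finger gene of 520567 bases at chr8:23636019-24156585, which had the largest rise of all members. Its values were -1.33, -1.42 and -1.31 in the control, -3.11, -3.19 and -3.27 at 4 h of BMH-21 and -0.81, -0.92 and -0.74 at 8 h. It rose by 2.37 (SE 0.09, limma adjusted p = 4.5e-16) and ended 0.53 above the control (SE 0.09, limma adjusted p = 9.6e-06). At 8 h of CX-5461 it was at -1.17, -1.25 and -1.29, just above the control and below the BMH-21 libraries. Tmem79 and the phosphatase regulator Ppp1r18 changed by 0.01 (SE 0.08) and 0.03 (SE 0.05).

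Set against the level at 2 h of BMH-21, 52 members were lower at 8 h and 3 higher, where 50.5% and 32.9% of all tested genes were called. The counts were the same without replicate 2 of the 8 h group, at 52 and 3. Those higher were Zmat4, Gata2 and Lfng, by 1.15, 0.42 and 0.34. On the deposited values only 1 was called higher, Zmat4 at 1.01, and Lfng was at 0.20. Id3 and Myb were back at their 2 h level within the spread, at 0.08 (SE 0.06) and -0.04 (SE 0.08).

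Only 12 of the 62 members belonged to any of 20 lists of pathway and state genes, and 12 of the lists held none, among them the core pluripotency, WNT, Nodal and p53 lists. Of the 4 core pluripotency genes, Nanog and Sall4 were among the genes that stayed low with CX-5461, as were Axin2 and Lef1 of the WNT list. Prdm14 was the only one of 14 naive pluripotency genes in the set, while 6 others, Esrrb, Zfp42, Nr5a2, Nr0b1, Gbx2 and Fbxo15, were among the genes that stayed low with CX-5461. Of the 14, 4 rose and 8 fell from 4 to 8 h of BMH-21. The share that rose is near the 28.3% of all tested genes, and 42.2% of these fell, which holds as the background for the lists that follow. Of 15 tested genes of the formative and primed state, Grhl2 was a member and 5 stayed low; 4 rose and 6 fell. Of 13 tested BMP genes, with Id3 and Id4 as members, 6 rose and 4 fell. Of 19 tested FGF and ERK genes, with Fgf15 and Spred3 as members, 7 rose and 7 fell. The Notch list with Lfng had 6 rises and 5 falls in 13 tested genes, and the Hippo list with Tead4 had 5 and 1 in 9. Numbered zinc finger genes, with Zfp296 and Zfp710 as members, had 134 rises and 73 falls in 347.

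All 62 members are annotated as protein coding. The median gene spanned 30954 bases, against 28650 for the genes that stayed low and 23160 for all tested genes, and 14 members (22.6%) spanned over 100 kb, against 17.9% and 12.9%. The median 3′ UTR of the members was 1324 bases, of the genes that stayed low 1419 and of all tested genes 1111. The AU-rich element core TATTTAT, searched on the transcript strand, was present in the 3′ UTR of 28 members (45.2%), of 37.1% of the genes that stayed low and of 29.1% of tested genes. The Pumilio motif TGTANATA was in 35.5%, 41.9% and 25.6%. These motif shares also depend on 3′ UTR length and are descriptions.

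Promoter windows from 250 bases before to 50 after the annotated start were found in RefSeq (GRCm38.p6) for 43 of 62 members, which is under the 80% needed, so a comparison of promoters is void. A motif of 4 runs of GGG with 1 to 7 bases between runs, on either strand, the textbook pattern for G-rich four-stranded DNA, was in 20 of these 43 windows. It was in 27.2% of 11585 windows of tested genes and in 29.0% of 169 windows of the genes that stayed low, and with 19 members lacking a window nothing is read from the members' count. Shown are the windows of the members with the largest rises (Lfng, Myb) and falls (Bcl3, Steap2) from 4 to 8 h of BMH-21 among those with a window, each 5′ to 3′ on the gene's strand. Capitals mark the motif, which in Myb reads as runs of C because it lies on the opposite strand, and the windows of Lfng and Steap2 hold no match. They are at chr5:140607091-140607390 (plus strand), chr10:21160935-21161234 (minus), chr7:19822706-19823005 (minus) and chr5:5694519-5694818 (minus), in the order shown.
Lfng: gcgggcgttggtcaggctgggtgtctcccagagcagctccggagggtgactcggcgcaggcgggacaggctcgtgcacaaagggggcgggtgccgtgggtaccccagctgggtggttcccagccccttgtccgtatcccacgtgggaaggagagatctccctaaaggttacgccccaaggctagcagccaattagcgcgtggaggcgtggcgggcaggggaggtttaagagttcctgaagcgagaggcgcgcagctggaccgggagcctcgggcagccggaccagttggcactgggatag
Myb: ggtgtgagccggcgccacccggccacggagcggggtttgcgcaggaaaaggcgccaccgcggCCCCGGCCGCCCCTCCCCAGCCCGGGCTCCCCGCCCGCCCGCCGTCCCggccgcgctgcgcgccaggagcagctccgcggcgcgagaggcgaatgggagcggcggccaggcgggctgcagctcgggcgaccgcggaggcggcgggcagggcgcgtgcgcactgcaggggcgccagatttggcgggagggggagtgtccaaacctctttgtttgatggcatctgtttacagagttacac
Bcl3: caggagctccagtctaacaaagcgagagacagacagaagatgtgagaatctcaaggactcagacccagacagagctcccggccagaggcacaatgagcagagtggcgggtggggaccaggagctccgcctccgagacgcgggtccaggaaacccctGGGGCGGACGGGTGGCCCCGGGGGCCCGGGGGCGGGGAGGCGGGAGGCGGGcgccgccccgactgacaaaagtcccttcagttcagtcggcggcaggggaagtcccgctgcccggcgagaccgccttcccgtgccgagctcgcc
Steap2: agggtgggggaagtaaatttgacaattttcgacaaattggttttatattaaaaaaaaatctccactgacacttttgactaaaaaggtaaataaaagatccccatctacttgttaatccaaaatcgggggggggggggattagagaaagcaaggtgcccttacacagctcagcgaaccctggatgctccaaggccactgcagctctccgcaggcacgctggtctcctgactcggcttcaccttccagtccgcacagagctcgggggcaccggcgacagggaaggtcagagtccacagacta
Of the windows shown, those of Myb, which rose, and Bcl3, which fell, held the motif. The windows were picked by the size of the change, so nothing is read from them. A link between the motif and the change was not tested.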

How the data were processed

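RNA of 21 samples was sequenced as directional poly(A) libraries, per the labels' protocols. The deposited table holds log2 values that the authors made with voom, per its name. The submitters' processing notes name mm10, Trim Galore 0.5.0, TopHat2 2.1.1, R 4.0.5, limma 3.46.0, edgeR 3.32.1 and DESeq2 1.30.1. The counter, annotation and filters are not given in the sources used here. The values gave whole reads plus 0.5 over a library factor, within 1.7e-08 of a whole read for all of them. Libraries were centred on the median of rows above 0 in at least 3 libraries. limma 3.58.1 in R 4.3.3 was fitted to the centred values, the model holding the 7 group means and a mean-variance trend, and p-values were adjusted by Benjamini-Hochberg over 14666 genes above 0 in at least 3 libraries. Replicates of a group differed by more than sampling noise in every pair. On simulated data for BMH-21 8 h against 4 h with 14666 genes, 39 of 50 genes changed 1.5-fold and 48 of 50 changed 2-fold were recovered, with 7 false calls. The simulation changed only 200 genes, as many up as down. In the data 28.3% of tested genes rose and 42.2% fell, so the check does not cover the effect of scaling there. Gene spans, exons and 3′ UTRs are from GENCODE M21 (GRCm38).

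The members and lists were chosen with earlier results of these data known. The named genes were the 6 members lowest at 4 h of CX-5461, the 3 largest rises and falls called without overlap in 3 comparisons, members of the lists and those nearest the thresholds; others are said to be chosen after their values were seen. The 9 roles were assigned once the members were known.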

Additional observations from a re-analysis of the deposited data

Results flagged for a closer look

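The 2 drugs differed at 2 h in 13 members by limma with Benjamini-Hochberg adjusted p under 0.05, each given as the BMH-21 mean minus the CX-5461 mean on the centred log2 scale. Id4 was higher with BMH-21 by 0.99, Ndrg1 by 0.48, Slco5a1 by 0.44, Nabp1 by 0.36 and Lfng by 0.30. Smaller differences in the same direction were found for Lrig1 (0.25), Nfatc4 (0.25), Trim2 (0.24), Optn (0.22), Hsd17b11 (0.22), Grhl2 (0.18) and Rai14 (0.17). Fjx1 was lower with BMH-21, at -0.51. On the deposited values 4 of these calls remained, those of Id4, Ndrg1, Slco5a1 and Nabp1.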

How the results depend on the processing

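The fall of all 62 members from 2 to 4 h of BMH-21 was called under every alternative run. Of 167 gene results past the threshold, 143 stayed past it in all alternatives and 0 changed sign. On the deposited values, 263 genes met the rule (61 to 69 when 1 library was left out), members called higher were 1 for BMH-21 8 h against 2 h (3 to 4 without 1 library), 4 for BMH-21 against CX-5461 at 2 h (8 to 10), 3 for BMH-21 2 h against the control (4 to 6) and 1 for BMH-21 8 h against the control (2 to 3), which became 5 with median-ratio factors. Members lower with BMH-21 than with CX-5461 at 2 h were 0 on the deposited values, 4 with median-ratio factors, 2 with voom weights, 6 with only the groups compared and 1 to 2 without 1 library. The cause was not tested.

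Genes not called between 4 and 8 h of BMH-21 changed sign. With median-ratio factors Slc17a9 was 0.04, Zfp296 0.09, Zfp710 0.01 and Spred3 0.05. On the deposited values Vrtn was -0.06, Tmem79 -0.06, Lrig1 -0.02 and Ppp1r18 -0.04. With quantile normalization Vrtn was -0.21, Zfp296 0.01, Tead4 -0.07, Tmem79 -0.11, Lrig1 -0.05 and Ppp1r18 -0.00, and with an offset of 5 reads Vrtn was -0.01. Leaving out 1 library gave -0.12 to 0.14 for Vrtn, -0.06 to 0.03 for Zfp296, -0.06 to 0.28 for Tead4, -0.14 to 0.06 for Spred3, -0.09 to 0.09 for Tmem79, -0.02 to 0.09 for Lrig1 and -0.02 to 0.08 for Ppp1r18.

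No pairing by replicate number was seen, as same-numbered libraries correlated from -0.25 to 0.11 and 4 of 21 correlated best with their own number. This check cannot exclude a pairing. With the replicate block 29 members rose and 12 fell from 4 to 8 h of BMH-21, as without it, and 0 of 179 gene results changed their call. Leaving out 1 library gave 23 to 30 rises and 10 to 13 falls. The lowest count of a member in any library was 69 reads, so counting error weighs most on Fgf15, Gprc5a and Myb.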
